A study of Mus musculus with 6 samples.

Results

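The genes described here are those of the surface proteins that define the sort gate for long-term haematopoietic stem cells (LT-HSC), with SLAM family genes that neighbour them. They were chosen by name: Kit, Ly6a, Slamf1, Cd34, Cd48 and Flt3, whose proteins (Kit, Sca-1, CD150, CD34, CD48 and Flk2) the gate names or, for Kit and Sca-1, LSK stands for, and Cd244 and Ly9. All 8 had a row in the deposited table, of whose symbols 23606 matched the GENCODE annotation, and all 8 were among the 12008 genes with enough signal to be tested. The series compared Itpkb-/- LT-HSC (labelled genotype IPTKB-/-, homozygous for the ENU-induced Ms T-less allele) with those of WT litter mate controls, both on the C57BL/6 background, with 3 RNA-seq libraries per genotype. Each library held at least 10000 bone marrow cells sorted from a pool of 4 age-matched mice as lineage-depleted LSK CD34-CD150+CD48-Flk2- cells. Itpkb encodes inositol-trisphosphate 3-kinase B. The labels name no promoter or Cre that would limit the allele to 1 cell type. The libraries are called mutant and control pools below, and animals within a pool could not be compared.

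Haematopoietic stem cells are separated from their progeny by a few surface proteins. Kit, the stem cell factor receptor, and Sca-1 mark the primitive compartment in mice. CD150 is kept by stem cells, whereas Flk2 (the Flt3 ligand receptor), CD34 and CD48 appear as cells become multipotent progenitors. CD150, CD48, CD244 and Ly9 belong to the SLAM family, immunoglobulin-like receptors encoded side by side on chromosome 1, of which CD48 is the ligand of CD244. The gate acts on proteins, so transcript levels in the sorted cells were not set by it directly.

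The libraries held 4024203 to 7470329 reads, and levels are given as normalized CPM, the authors' read counts scaled to library size. A single read contributed 0.131 to 0.249 normalized CPM depending on the library. The floor of detection was set at 3 reads (0.393 to 0.746), which covers counting error only. Itpkb itself was at 10.2, 13.99 and 18.2 normalized CPM in mutant pools 1, 2 and 3, against 22.1, 23.6 and 25.1 in control pools. Every mutant pool lay below every control pool, but the limma test described next did not call the difference (log2 -0.73, adjusted p = 0.172), and called it with the replicate block (0.0541). The labels do not say what the allele does to the transcript. All 16 genes of a list of LT-HSC markers were tested, led in normalized CPM (not per length) by genes that include Hlf and Gata2, and their summed level was 2192 to 3135 normalized CPM in mutant pools, against 3294 to 3947 in control pools, so the defining genes of the labelled cell type were present in both. Of these 16, that test called 1 as higher, Itga2b, and 6 as lower, among them Procr, Fgd5, Hlf, Mecom and Pdzk1ip1. The share called was 43.75%, beside 5.5% of all tested genes, 2.27% as higher and 3.24% as lower. Fewer cells of a type in a pool and less RNA per cell cannot be told apart in such bulk samples.

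None of the 8 genes differed between the genotypes by the test used throughout (limma with a mean-variance trend on log2(normalized CPM + 1), called at a Benjamini-Hochberg adjusted p of at most 0.15), where 5.5% of all tested genes were called, 2.27% as higher and 3.24% as lower in the mutant. None had an unadjusted p under 0.05, and none was called by the edgeR quasi-likelihood test (6.02% of its genes called), while DESeq2 (5.66% called) called 1 of them, Cd48. The median log2 difference of the 8 was 0.10, beside 0.00183 over all genes tested, with 5 positive and 3 negative. The genes fell into a stable set, Kit, Ly6a, Slamf1 and Cd34, whose highest library was 1.28 to 1.49 times the lowest, and a variable set, Cd48, Flt3, Cd244 and Ly9, where it was 3.06 to 10.9 times the lowest. The coefficient of variation over the 6 libraries was 8.85% to 15.97% in the stable set and 38.7% to 76.2% in the variable set. Cd34 varied less than all but 6.73% of the tested genes, and Cd48 more than 95.6% of them, counting genes of every level. The stable set was also the more abundant. Its mean normalized CPM exceeded that of 66.0% to 98.8% of tested genes, against 7.24% to 44.0% for the variable set. The part of counting error in the spread of the variable set was not tested.

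**Figure D1:**
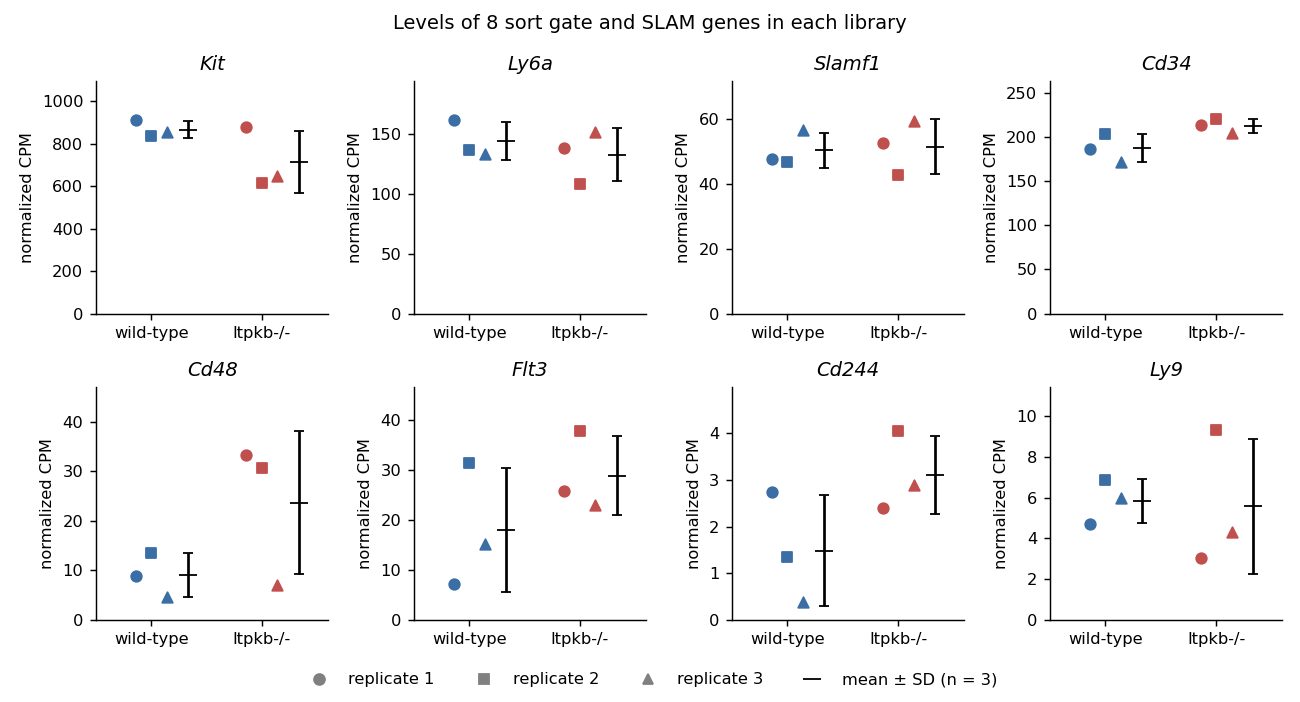
Levels of the 8 genes in normalized CPM in each library, by genotype, with the mean ± SD of 3 libraries. Kit, Ly6a, Slamf1 and Cd34 stayed within a 1.49-fold range over all 6 libraries, whereas Cd48 reached 33.3 and 30.8 in mutant pools 1 and 2 and at most 13.6 in the other 4.

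The gate requires the proteins of Kit, Ly6a and Slamf1. Kit was at 879, 615 and 647 normalized CPM in mutant pools 1, 2 and 3, against 911, 834 and 854 in control pools, or 713.9 ± 144.1 against 866.4 ± 39.8 (SD, n = 3 each). Libraries 2 and 3 of the mutant group lay below all control pools, and library 1 lay among them. The log2 difference of -0.30 (SE 0.15, 95% interval -0.62 to 0.03, limma adjusted p = 0.372) did not pass the test. Library numbers were shared between the genotypes, and the labels do not say what they stand for. Same-numbered libraries deviated together, so they were also fitted as pairs with a replicate block. It called 18.1% of all genes, 9.15% as higher and 8.97% as lower. The pairing was taken from these same data, so every call and interval with the block depends on that choice. With this block, which called 3 of the 8 genes, Kit fell (limma adjusted p = 0.0600), lower by 0.05, 0.44 and 0.40 on the log2 scale in pairs 1, 2 and 3. Without Itpkb-/- replicate 1, the mutant library among the control pools, the unpaired test also called Kit (log2 difference -0.46, adjusted p = 0.0791). Leaving out any other 1 library did not (limma adjusted p from 0.476 to 0.709).

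Ly6a encodes Sca-1, a small GPI-anchored protein of the Ly6 family. Its level was 138, 108 and 152 normalized CPM in the mutant pools, against 162, 137 and 133 in the control pools. The groups overlapped, and the log2 difference was -0.12 (SE 0.15, adjusted p = 0.767), with a 95% interval from 0.725-fold to 1.16-fold. Slamf1, the gene of CD150, was at 52.5, 42.6 and 59.2 normalized CPM in mutant pools, against 47.5, 46.8 and 56.6 in control pools. These ranges also overlapped, with a log2 difference of 0.02 (SE 0.17, adjusted p = 0.965) and an interval from 0.780-fold to 1.33-fold. The data thus bounded any change of Slamf1 on this scale without showing that its level was equal.

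Transcripts of the 3 proteins that the gate excludes were all detected in every library. Cd34 encodes a sialomucin of the cell surface, and its RNA varied least of the 8 genes. It was at 213, 220.2 and 204 normalized CPM in mutant pools, against 187, 204 and 172 in control pools, and of the 8 genes it alone had all mutant pools above all wild-type ones, as 10% of tested genes did, while the genotypes did not overlap in 21.3% and all mutant pools lay below in 11.3%. The margin was narrow, since mutant pool 3 and control pool 2 differed by less than the floor of detection. The log2 difference was 0.18 (SE 0.12, 95% interval -0.09 to 0.45, adjusted p = 0.525), and the replicate block did not call it (adjusted p = 0.276). An unstranded library cannot separate Cd34 from Gm16897, an antisense gene that shares 148 exon bases with it.

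Cd48, the GPI-anchored ligand of CD244, had the largest difference among the 8 in the main test, though not with the granulocyte covariate, without Itpkb-/- replicate 1 or wild-type replicate 3, or in edgeR with the replicate block. It was at 33.3, 30.8 and 7.08 normalized CPM in mutant pools 1, 2 and 3, against 8.95, 13.6 and 4.65 in control pools. Mutant pools 1 and 2 stood above every control pool, and mutant pool 3 lay below control pools 1 and 2. The means were 23.7 ± 14.5 and 9.07 ± 4.47, a log2 difference of 1.14 (SE 0.52, 95% interval -0.01 to 2.29, adjusted p = 0.328). Within pairs Cd48 was higher in mutant pools by 1.79, 1.12 and 0.51 on the log2 scale, and with the replicate block it rose (adjusted p = 0.0205). DESeq2 called it without pairing (log2 difference 1.38, adjusted p = 0.101). So did limma without Itpkb-/- replicate 3, its lowest mutant library (1.82, adjusted p = 0.0457). Leaving out any other 1 library did not give a call (limma adjusted p from 0.310 to 0.673).

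Flt3 encodes the receptor of Flt3 ligand, which supports lymphoid and myeloid progenitors. It was at 25.9, 37.9 and 22.9 normalized CPM in mutant pools, against 7.21, 31.5 and 15.3 in control pools. The groups overlapped, since control pool 2 exceeded mutant pools 1 and 3. The log2 difference was 0.84 (SE 0.41, 95% interval -0.07 to 1.75, adjusted p = 0.364). In pairs 1, 2 and 3 it was 1.71, 0.26 and 0.56 higher, and with the replicate block Flt3 rose (adjusted p = 0.0569). Without wild-type replicate 2, its highest control library, the unpaired test called Flt3 (log2 difference 1.34, adjusted p = 0.140). Leaving out any other 1 library did not (limma adjusted p from 0.347 to 0.718). Without wild-type replicate 1 the log2 difference was 0.35 (adjusted p = 0.718). Cd34, Cd48 and Flt3 were thus higher in all 3 pairs, as 21.8% of tested genes were, and Kit was lower in all 3, as were 21.8%.

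**Figure D2:**
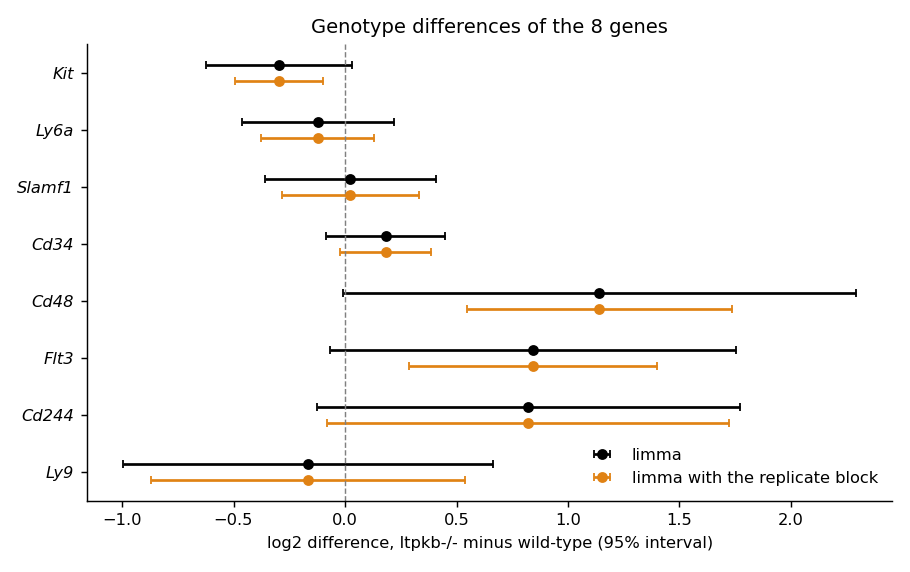
Log2 difference of each of the 8 genes, Itpkb-/- minus wild-type, with 95% intervals from limma without (black) and with (orange) the replicate block. All 8 unpaired intervals reach 0, while the paired intervals of Kit (-0.49 to -0.10), Cd48 (0.55 to 1.73) and Flt3 (0.29 to 1.40) do not.

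Ratios of normalized CPM within a library, here not per length, do not depend on its scaling. The ratio of Cd48 to Slamf1 was 0.635, 0.723 and 0.119 in mutant pools 1, 2 and 3, against 0.188, 0.291 and 0.0822 in control pools. That of Flt3 to Slamf1 was 0.494, 0.891 and 0.387 in mutant pools, against 0.152, 0.674 and 0.270 in control pools. The ratio of Cd34 to Slamf1 was 4.05, 5.17 and 3.44 in mutant pools, against 3.93, 4.35 and 3.04 in control pools. All 3 ratios overlapped between genotypes, and all 3 were higher in the mutant pool of every pair. Their numerators are the 3 genes already described as higher in every pair, and they share Slamf1 as denominator. They are therefore not separate results.

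Markers of granulocytes followed Cd48 between some libraries and not others. The 17 granulocyte genes, led by Mpo, S100a8 and S100a9, summed to 6863, 18961 and 988 normalized CPM in mutant pools 1, 2 and 3, against 3934, 2817 and 764 in control pools. The sum and Cd48 were both lowest in the library numbered 3 of each genotype, and both were highest in mutant pools 1 and 2. Between libraries 1 and 2 the order of the sum was opposite to that of Cd48 in both genotypes. Mutant pool 2 had the larger sum and less Cd48 than mutant pool 1, and control pool 1 the larger sum and less Cd48 than control pool 2. Single genes of the list did not all share the order of the sum. In control pools 1 and 2 Mpo was at 263 and 817 normalized CPM, whereas S100a8 was at 1149 and 511. None of the 17 genes was at 0 in all libraries, and none was called (1 had an unadjusted p under 0.05, edgeR called 0 and DESeq2 called 2, Ctsg and Ms4a3), beside 5.5% of all tested genes. With the replicate block 15 rose, as did 9.15% of all genes. With the mean of this list as a covariate, a fit that called 1.6% of all genes, the log2 difference was 0.50 for Cd48 (limma adjusted p = 0.688), 0.70 for Flt3 (0.659) and -0.30 for Kit (0.597). Without both libraries numbered 2 it was 1.15 for Cd48 and 1.14 for Flt3, neither called (adjusted p = 0.584 and 0.310).

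**Figure D3:**
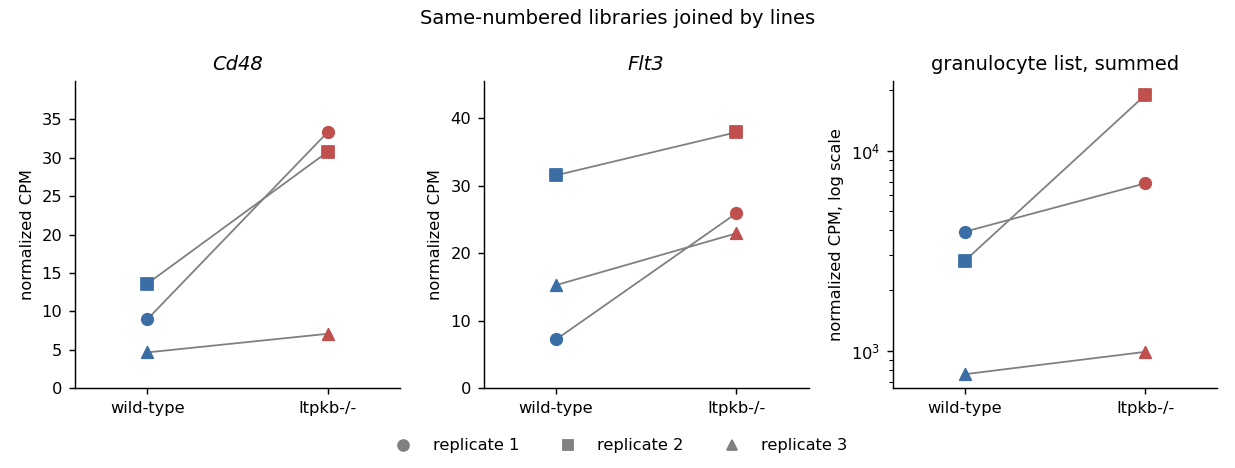
Cd48, Flt3 and the summed granulocyte list in normalized CPM (the last on a log scale) in each library, with lines joining same-numbered libraries. All 3 were higher in the mutant pool of each pair, and for Cd48 and the granulocyte list both libraries numbered 3 were the lowest of their genotype.

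Lists of other cell types were summed in the same way. Lymphoid and NK genes, led by Nkg7, Cd79b and Cd4, summed to 128 to 338 normalized CPM in mutant pools, against 106 to 155 in control pools. The T and B cell genes Cd3g, Cd8a and Pax5 had no read in any library, and 1 of 7 tested genes of this list, Gzmb, rose. Mast cell and basophil genes, led by Fcer1a, Hdc and Cpa3, summed to 11.5 to 55.01 and 19.0 to 23.1, with Mcpt4 and Tpsab1 at 0 and 2 of 6 tested genes, Fcer1a and Gzmb, higher. Monocyte and macrophage genes (Lyz2, Itgam, Cd68) summed to 319.9 to 688 and 434 to 652, with 0 of 9 called, 1 at an unadjusted p under 0.05 and 0 by edgeR or DESeq2. Erythroid genes (Car2, Car1, Tfrc) summed to 767 to 1443 and 1149.5 to 1545, with Epor, Tfrc and Rhag of 14 higher and Car2 lower. Megakaryocyte genes (Itgb3, Pf4, Nrgn) summed to 974 to 1759 and 832 to 954, with Gp1ba and Itgb3 of 10 higher. Endothelial genes (Tie1, Pecam1, Emcn) summed to 128 to 179 and 192 to 199, with Emcn and Tie1 of 5 lower. For comparison with these counts, 5.5% of all tested genes were called. None of the last 4 lists had a member at 0 in all libraries, and the part of these cell types in the values of the 8 genes was not tested.

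The remaining SLAM receptors among the 8 were scarce. Cd244, the CD48 receptor of NK and myeloid cells, was at 2.40, 4.04 and 2.88 normalized CPM in mutant pools, from 11, 26 and 22 reads, and at 2.74, 1.35 and 0.372 in control pools, from 11, 9 and 2 reads. Control pool 3 lay under the floor of 3 reads, and the groups overlapped through mutant pool 1 and control pool 1. The log2 difference was 0.82 (SE 0.43, 95% interval -0.13 to 1.77, adjusted p = 0.397), and no alternative in which it was tested called it. Without wild-type replicate 3 the log2 difference was 0.45. Ly9, a receptor that binds itself and is found on lymphocytes, was at 3.05, 9.32 and 4.32 normalized CPM in mutant pools, against 4.72, 6.87 and 5.96 in control pools. Its highest and lowest values were both in mutant pools, and the log2 difference was -0.16 (SE 0.38, interval -0.99 to 0.66, adjusted p = 0.888). Cd244 and Ly9 overlap on opposite strands but share no exon bases, so only reads from introns could be confused between them.

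Levels of different genes are compared per kb of merged exons. In wild-type cells the order was Ly6a (119.2 ± 13.0 normalized CPM per kb), Kit (97.2 ± 4.47), Cd34 (25.7 ± 2.17), Slamf1 (8.17 ± 0.888), Cd48 (7.63 ± 3.76), Flt3 (2.92 ± 2.01), Ly9 (1.77 ± 0.326) and Cd244 (0.304 ± 0.244). The ranges of Slamf1 and Cd48, of Cd48 and Flt3, and of Flt3 and Ly9 overlapped, and those of the other neighbours did not. In Itpkb-/- cells Cd48 (19.95 ± 12.2) came before Slamf1 (8.36 ± 1.36) with overlapping ranges, and Ly6a and Kit (110.1 ± 18.3 and 80.1 ± 16.2) overlapped, as did Cd34 (29.1 ± 1.13) and Cd48. The lengths matter for this order, since merged exons of Cd34 span 7.29 kb and its principal transcript 2.454 kb. Per kb of principal transcript, a length chosen after the data were seen, wild-type Kit (166.2 ± 7.64) came before Ly6a (150.4 ± 16.4), and Cd34 (76.3 ± 6.44) still came next, ahead of Slamf1 (18.7 ± 2.03). On that length wild-type Cd48 was at 7.65 ± 3.77, and its range (3.92 to 11.5) lay below that of Slamf1 (17.4 to 21.0). Mutant Cd48 (20.0 ± 12.2) and Slamf1 (19.1 ± 3.11) overlapped on it. The order of Slamf1 and Cd48 thus depended on the length used.

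Cd244, Ly9, Cd48 and Slamf1 lie in that order within 242 kb of chromosome 1 (build mm10, GENCODE M21). Cd244 spans 171559193 to 171609746 on the plus strand, Ly9 171588624 to 171607410 on the minus strand, Cd48 171682009 to 171705258 and Slamf1 171767127 to 171801184, both on the plus strand. The locus ends 8.53 Mb before Itpkb, and Cd34 (194938819 to 194961279, plus strand) starts 14.5 Mb beyond Itpkb. Kit (75574916 to 75656722, plus strand) and Flt3 (147330741 to 147400489, minus strand) are on chromosome 5, and Ly6a (74994877 to 74998031, minus strand) is on chromosome 15.

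Of 35 annotated genes within 200 kb of these 4 SLAM genes, 17 were in the table and 13 were tested. None of the 13 was called (2 had an unadjusted p under 0.05, edgeR called 0 and DESeq2 called 1), beside 5.5% of all tested genes. The 9 that are not among the 8 genes were Pfdn2, Klhdc9, Pvrl4, Arhgap30, Usf1, F11r, Alyref2, Cd84 and Vangl2. Their log2 differences ran from -0.46 in F11r, a junctional adhesion molecule (adjusted p = 0.266), to 0.37 in Arhgap30 (adjusted p = 0.308). Both of these were called with the replicate block (adjusted p = 0.106 and 0.0569). Levels differed from one SLAM gene to the next. In wild-type cells Cd84, beside Slamf1, was at 5.50 normalized CPM per kb, while Slamf7, between Ly9 and Cd48, had at most 1 read in any library, and so did Slamf6.

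**Figure D4:**
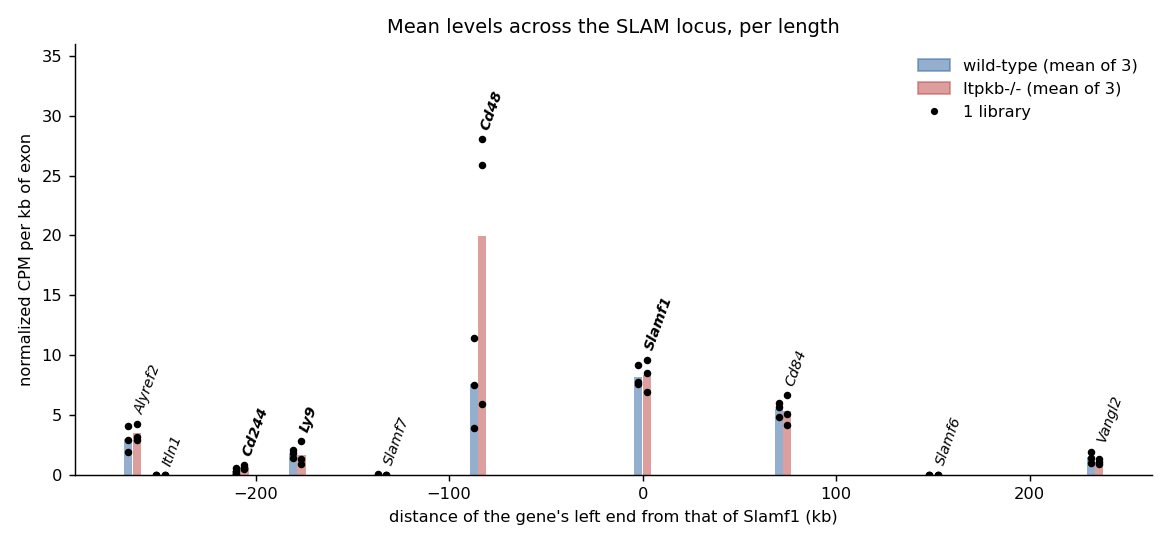
Mean level per kb of exon along the SLAM locus, by distance from Slamf1, in wild-type (blue) and Itpkb-/- (red) cells, with each library as a point. Slamf1 was at 8.17 and 8.36 normalized CPM per kb of merged exons in wild-type and Itpkb-/- cells, and Cd48 at 7.63 and 19.95, while Cd244 stayed under 1 in both. Slamf1 against Cd48 depends on the length used. Per kb of principal transcript, not drawn here, Slamf1 was at 18.7 and 19.1 and Cd48 at 7.65 and 20.0.

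The upstream sequences of 4 of these genes are shown because the levels of Slamf1 and Cd244, at the ends of the same locus, stood far apart, and because Cd34 and Flt3 are transcribed in cells sorted as lacking their proteins. They are the bases before the RefSeq start site on GRCm38.p6, cut where an annotated exon begins, with matches to 4 motifs in capitals. RefSeq promoters matched 6 of the 8 genes, and those of Kit and Cd48, with 71 and 239 bases of annotated exons in the window, are not printed.
Slamf1 (chr1:171766882-171767126, plus strand): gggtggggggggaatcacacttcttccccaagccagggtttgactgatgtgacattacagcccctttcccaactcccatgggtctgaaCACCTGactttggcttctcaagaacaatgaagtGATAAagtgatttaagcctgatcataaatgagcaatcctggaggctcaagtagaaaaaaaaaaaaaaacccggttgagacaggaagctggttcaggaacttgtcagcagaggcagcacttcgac
Cd244 (chr1:171558943-171559192, plus strand): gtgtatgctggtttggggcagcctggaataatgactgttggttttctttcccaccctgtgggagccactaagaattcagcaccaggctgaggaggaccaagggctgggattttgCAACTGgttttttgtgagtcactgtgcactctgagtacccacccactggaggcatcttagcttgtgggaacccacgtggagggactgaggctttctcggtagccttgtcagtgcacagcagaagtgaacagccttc
Cd34 (chr1:194938571-194938818, plus strand): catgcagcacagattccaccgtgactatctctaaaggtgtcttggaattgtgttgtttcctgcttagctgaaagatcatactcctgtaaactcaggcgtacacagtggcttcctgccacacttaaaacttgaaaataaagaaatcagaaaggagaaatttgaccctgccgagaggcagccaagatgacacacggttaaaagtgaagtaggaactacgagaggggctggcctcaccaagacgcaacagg
Flt3 (chr5:147400490-147400739, minus strand): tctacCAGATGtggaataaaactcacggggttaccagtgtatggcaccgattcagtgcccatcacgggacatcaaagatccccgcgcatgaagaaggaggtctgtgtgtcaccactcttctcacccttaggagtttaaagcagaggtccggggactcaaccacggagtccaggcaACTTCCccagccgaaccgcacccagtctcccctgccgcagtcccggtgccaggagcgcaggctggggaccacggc

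The motifs searched on both strands were GATAA (Gata factors), TGTGGT (Runx), GGAAGT (Ets) and CAGNTG (E-box), none of which overlapped another here. Slamf1 held 1 GATAA and 1 E-box, the latter printed as CACCTG. Cd244 held 1 E-box, Flt3 held 1 E-box and 1 Ets match on the other strand, printed as ACTTCC, and Cd34 held none. Among 27025 RefSeq promoter windows of 250 bases, 23.0% held GATAA, 14.2% TGTGGT, 19.99% GGAAGT and 44.5% CAGNTG, and the matches are a description of these windows only.

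A list was made of genes of the other SLAM receptors and of proteins that bind their tails. Of 17 listed genes all were in the table and 11 were tested. None of these was called (2 had an unadjusted p under 0.05, edgeR called 0 and DESeq2 called 1), and their median log2 difference was 0.10. With 11 genes tested, 0 called is near the share of 5.5% over all tested genes. The 6 not tested, among them Slamf6 and Slamf7, had at most 3 reads in any library. The SAP adaptors, which couple SLAM receptors to kinases in lymphocytes, were at or under the floor: Sh2d1a and Sh2d1b2 had no read in any library and Sh2d1b1 at most 3. Ptpn6, a phosphatase gene and 1 of the 2 with the smallest p, was at 80.4, 150.6 and 100.7 normalized CPM in mutant pools, against 64.7, 86.8 and 76.7 in control pools. Its groups overlapped, and the log2 difference was 0.49 (limma adjusted p = 0.299). Ptpn6 rose in the fit with the replicate block (adjusted p = 0.0274), where 2 genes of the list were called, beside 18.1% of all genes. The unpaired test called it without Itpkb-/- replicate 1 (adjusted p = 0.111). Leaving out any other 1 library did not give a call (limma adjusted p from 0.337 to 0.683).

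Of 44 tested genes in Kit and Flt3 signalling 2 rose and 42 did not pass. The share called was 4.55%, near the 5.5% of all tested genes, and the median log2 difference was -0.04. Sla, an adaptor that dampens receptor signalling, was at 130.04, 172 and 175 normalized CPM in mutant pools, against 101, 104 and 84.5 in control pools, without overlap (log2 difference 0.71, SE 0.16, adjusted p = 0.0522). Plcg2, a phospholipase that makes inositol trisphosphate, was at 227, 242 and 261 against 168, 183 and 184, also without overlap (log2 difference 0.45, SE 0.12, adjusted p = 0.105). The Sla call was lost without Itpkb-/- replicate 2 (adjusted p = 0.151), wild-type replicate 3 (0.274) or both libraries numbered 2 (0.272), and with the granulocyte covariate (0.172), where its log2 difference was 0.68. The Plcg2 call was lost without any 1 library except Itpkb-/- replicate 1, with adjusted p from 0.205 to 0.313, and likewise without both libraries numbered 2 (0.415) and with the covariate (0.211), where its log2 difference was 0.49. With the replicate block, which called 18.1% of all genes, 5 of the 44 rose, adding Ptpn6, Stat3 and Nras, and 2 fell, Rasa1 and Sla2. Of the ligand genes, Kitl was at 0, 0.155 and 0.131 normalized CPM in mutant pools, against 0.249, 1.35 and 0 in control pools, and Flt3l had a log2 difference of 0.23 (adjusted p = 0.848).

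In the Ly6 family 6 of 19 genes in the table were tested, with a median log2 difference of 0.16. None was called (0 had an unadjusted p under 0.05, and edgeR and DESeq2 called 0), beside 5.5% of all tested genes. Lynx1 (-0.74, adjusted p = 0.388) and Ly6c2 had the smallest p. Ly6e, with the highest normalized CPM of the list, was at 1264 ± 82.4 normalized CPM in mutant pools, against 1228 ± 60.5 in wild-type cells. Ly6c2, a gene of monocytes and granulocytes, was at 73.0, 363 and 10.6 in mutant pools, against 41.5, 45.3 and 10.4 in control pools, with the same libraries high and low as in the granulocyte list of the mutant group (log2 difference 1.27, limma adjusted p = 0.582, or 0.0411 when paired by the replicate block). The edgeR fit with that block did not call Ly6c2 (adjusted p = 0.492), and without Itpkb-/- replicate 2 its log2 difference was 0.054. Ly6c2 has a near-identical copy, Ly6c1, so the division of reads between them is uncertain, and Ly6a belongs to the same cluster of related genes.

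Of the relatives and ligands of CD34, Selp, P-selectin, rose. It was at 124, 106 and 173 normalized CPM in mutant pools, against 37.8, 33.9 and 34.3 in control pools, without overlap (log2 difference 1.87, SE 0.19, limma adjusted p = 0.00161). The call was kept in every alternative run. Podxl, podocalyxin, the sialomucin most like CD34, had a log2 difference of -0.27 (adjusted p = 0.625).

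The genes whose profile over the 6 libraries lay closest to that of Cd48, among 10034 candidates and by the root mean square difference of centred log2 values, were Itgam (0.32), Atp1b2 (0.33), a sodium pump subunit, and Vcan (0.35), where the spread of Cd48 itself was 0.97. Itgam encodes CD11b of myeloid cells and Vcan the proteoglycan versican. Itgam was at 71.7, 103.6 and 30.3 normalized CPM in mutant pools, against 41.3, 45.3 and 17.1 in control pools; its likeness to Cd48 is what it was chosen for. Vcan rose (log2 difference 1.77, limma adjusted p = 0.139), on 4 to 16 reads in control pools. It too was chosen for its likeness to Cd48, which was highest in mutant pools 1 and 2, so its call is not a separate result. For Flt3, with a spread of 0.74, the nearest were Cdca3 (0.20), a gene of dividing cells, Usp2 (0.21), a deubiquitinase, and Golm1 (0.22), a Golgi membrane protein. Cdca3, likewise chosen for its likeness to Flt3, was at 36.2, 52.5 and 33.3 in mutant pools, against 11.2, 32.1 and 24.6 in control pools.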

How the data were processed

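Per the submitters' processing notes, reads were processed with CASAVA 1.8.2, cutadapt, TopHat2 2.0.8b, Partek and edgeR on build mm10, whereas the series design text gives another TopHat version. Libraries were made with a NuGEN Ovation kit, per the labels' protocols, a kit that does not mark strand. The deposited values are a signal on the scale of CPM, and their steps show gene counts divided by 1 factor per library. Every value was a whole number of steps (100% within 0.01 read), which gave back the reads used for edgeR 4.0.16 (692 genes called) and DESeq2 1.42.0.

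The main test was limma 3.58.1 (R 4.3.3) using its trended variance on log2 values after adding 1, for genes at 1 or more in at least 3 libraries, with Benjamini-Hochberg adjustment over 12008 genes. This log scale understates the change of low genes. The limit of 0.15 follows the design text of the series. The test was also run on simulated counts, drawn with a dispersion common to all genes and no shared deviation of same-numbered libraries. That run therefore does not cover the variation between libraries described below.

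The members and lists were chosen with earlier results of these data known. Named genes were the 8 members, called genes and the 2 smallest p-values of 4 related lists, the 3 most abundant genes of each cell type list, the nearest profiles, tested neighbours in the locus and Itpkb. Ctsg, Ms4a3, called genes of the cell type lists beyond the 3 most abundant, genes called only with the block, Kitl, Flt3l, Podxl, Ly6e and the genes named as unread were named after their values were seen. Lists of LT-HSC, granulocyte, monocyte and macrophage, lymphoid and NK, erythroid, megakaryocyte, mast cell and basophil, and endothelial genes checked the cell types. Deviations from genotype means correlated across genes at 0.296, 0.268 and 0.284 between libraries with the same number in their titles and at -0.0475 or below between others, some of which must be negative because deviations sum to 0 within a genotype. The library numbers were therefore treated as pairs; the labels leave their meaning unstated. Between libraries of a genotype the chi-square per degree of freedom was 5.93 to 25.2, so none repeated another. Some genes that this rule names are not reported here.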

Additional observations from a re-analysis of the deposited data

How the results depend on the processing

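Of the 8 genes, Cd34 and Cd244 kept their direction and were not called under any alternative that tested them, over log2 ranges of 0.12 to 0.24 and 0.39 to 1.26. With fewer low genes kept (at least 4 normalized CPM in 3 libraries) Cd244 was not tested. With the replicate block, Kit (-0.30), Cd48 (1.14) and Flt3 (0.84) were called, and with the block in edgeR likewise (-0.30, 1.26 and 0.79). DESeq2 called Cd48 (1.38). The block changed no other call among the 8. Leaving out 1 library moved the log2 difference of Kit from -0.46 to -0.20, Ly6a from -0.22 to 0.015, Slamf1 from -0.082 to 0.15, Cd48 from 0.77 to 1.82, Flt3 from 0.35 to 1.34 and Ly9 from -0.55 to 0.13. Ly6a, Slamf1 and Ly9 changed sign there, at adjusted p of 0.897 or more. The sign of Ly6c2 changed with the granulocyte covariate (-0.17).

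Of all genes, 661 were called, 2176 with the block, 2126 with the block in edgeR, 192 with the granulocyte covariate, 128 without both libraries numbered 2, and 64 to 839 with 1 library left out. The SLAM list held 0 called genes, 1 by DESeq2, 2 with the block in limma and in edgeR, and 0 to 2 with 1 library left out. The Kit and Flt3 list held 2, 7 with the block in limma and in edgeR, 0 with the granulocyte covariate, 0 without both libraries numbered 2, and 0 to 5 with 1 library left out. With 3 pools per genotype and 2 to 26 reads for Cd244, differences of low genes were poorly resolved.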
